A study of Mus musculus with 2 samples.

Results

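Choroid plexus epithelial genes were followed in 2 RNA-seq libraries of sorted mouse microglia. The 10 genes, Ttr, Enpp2, Igfbp2, Kl, Kcne2, Clic6, Aqp1, Folr1, Prlr and Otx2, were picked by symbol from 53801 genes listed in each library, and all 10 were found. They were chosen for how they differ between the libraries, so the difference between the libraries is given as a description, without a test. Both libraries belong to 1 group, WT sham, and each came from 1 mouse of the genotype Cx3cr1(CreER/wt) on a C57BL/6 background. The series text gives males of 8 to 10 weeks, whereas the study's methods give another age range and both sexes. In these mice the Cx3cr1 promoter, active in microglia and other macrophages, drives the tamoxifen-inducible recombinase CreER. They received tamoxifen at 75 mg/kg per day for 4 days, and sham surgery followed 14 days after the first dose. Cells were taken 3 days after surgery from the ipsilesional hemisphere and gated as CD11c-Ly6G-CD11b+CD45low. The treatment label of both samples reads none. No stroke library was analysed here.

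The choroid plexus hangs into the brain ventricles and makes cerebrospinal fluid. Its epithelial cells are joined by tight junctions, pump ions and water, carry vitamins from blood to fluid, and secrete proteins, above all transthyretin. These cells are not of the myeloid lineage and carry neither CD11b nor CD45, so the gate used here was not meant to collect them.

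Library 1 held 23381026 counts on genes and library 2 held 41142609. Levels are given as CPM, the counts of a gene per 1000000 counts of its library, and pairs of values name library 1 first. Where no read was counted, a true count of up to 3 is possible, which is 0.128 CPM in library 1 and 0.0729 CPM in library 2. All intervals and limits cover counting error only. They treat reads as independent, but reads of amplified cDNA are not independent molecules, so they can be too narrow even for that. All 10 microglia marker genes were detected, and they summed to 51226 and 47240 CPM. The biological coefficient of variation between the libraries was 0.479 (edgeR common dispersion over 13455 genes). The median log2 ratio of library 2 to library 1 over the 14673 genes with a summed count of at least 20 was −0.21, and the 5th and 95th percentiles were −2.26 and 1.85. In bulk RNA, fewer cells of a type and less RNA per cell cannot be told apart.

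Summed over the 10 choroid plexus genes, library 1 held 1080 counts and library 2 held 24581. This amounted to 46.2 CPM (exact Poisson 95% interval 43.5 to 49.0) and 597 CPM (590.0 to 605.0), or 322 ± 389.8 CPM (SD, n = 2 mice). The 10 genes thus made up 0.00462% of all counts in library 1 and 0.0597% in library 2. The summed level was 12.9-fold higher in library 2, a log2 ratio of 3.69 (exact 95% interval 3.61 to 3.78). The difference between these 2 replicates of 1 group exceeded their mean, so the mean describes neither library.

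**Figure D1:**
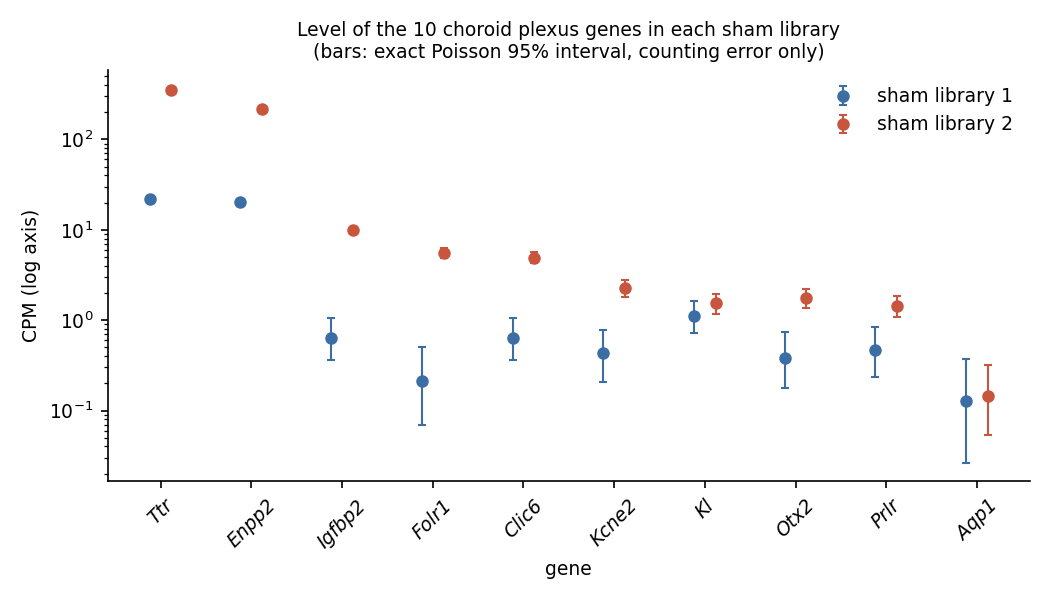
The plot gives the level of each of the 10 genes (CPM, log axis) in sham library 1 and sham library 2, ordered by mean level, with exact Poisson 95% intervals. Ttr and Enpp2 are the highest in both libraries, at 21.9 and 20.2 CPM in library 1 and 356 and 214 CPM in library 2, whereas the intervals of the libraries overlap for Kl and Aqp1.

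Of the 10 genes, 8 were over 2-fold higher in library 2 and none was over 2-fold lower. Over all 14673 genes tested, 9.51% were over 2-fold higher and 25.7% over 2-fold lower. Past 4-fold, the 7 choroid plexus genes stand beside a background of 4.26%, and past 8-fold the 4 genes stand beside 1.5%. Because the genes were chosen on this contrast, nothing is read from these counts. The 10 genes were not equally far apart. Their log2 ratios ran from 0.18 for Aqp1 to 4.70 for Folr1, with a median of 2.67, and 7 of the 10 lay above the 95th percentile of all genes tested. The counting interval included the ratio of the sum for 3 of the 10 genes, namely Folr1, Clic6 and Igfbp2.

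**Figure D2:**
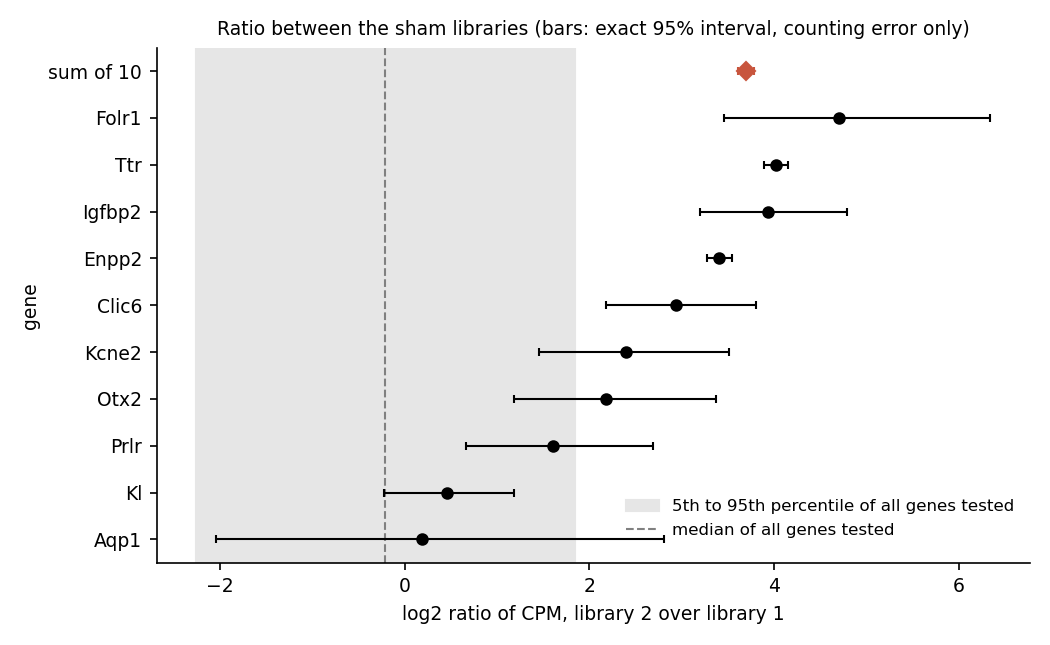
Points show the log2 ratio of CPM, library 2 over library 1, for each of the 10 genes and for their sum, with exact 95% intervals for counting error. The grey band spans the 5th to 95th percentile of the 14673 genes tested (−2.26 to 1.85), and 7 of the 10 genes lie to the right of it, whereas Prlr, Kl and Aqp1 lie within it.

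Among the secreted proteins, Ttr had the highest counts. It encodes transthyretin, the carrier of thyroxine and of retinol-binding protein in cerebrospinal fluid and plasma (chromosome 18 of GRCm38, 20665250 to 20674324, + strand). Ttr had 513 and 14637 counts, or 21.9 CPM (20.1 to 23.9) and 356 CPM (350.0 to 362), with a mean of 189 ± 236 CPM (SD, n = 2). At the level of library 1, the depth of library 2 would have given 903 counts. The log2 ratio was 4.02 (3.89 to 4.15), higher than for 99.6% of the genes tested. The liver also makes transthyretin. Of 8 hepatocyte genes, 7 had at most 3 counts in each library, and Alb, the albumin gene, had 10 and 27 counts, a summed level of 0.556 and 0.681 CPM for the list.

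Enpp2 encodes autotaxin, the secreted enzyme that makes lysophosphatidic acid, and is known from both choroid plexus and oligodendrocytes (chromosome 15, 54838901 to 54952892, − strand). Enpp2 had 473 and 8816 counts, or 20.2 and 214 CPM (mean 117 ± 137, SD, n = 2). Its log2 ratio was 3.40 (3.27 to 3.54), which does not overlap the interval of Ttr. The 9 oligodendrocyte genes, in contrast, summed to 101 and 112 CPM. Of these 9, 3 were over 2-fold higher and none over 2-fold lower in library 2, beside 9.51% and 25.7% of all genes tested. Their most abundant gene, Mag, a myelin adhesion molecule, had 44.8 and 53.7 CPM. An opposite-strand noncoding gene, Gm26684, shares 5.97% of the exon bases of Enpp2 and had 0 and 1 counts.

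Igfbp2 encodes a binding protein of the insulin-like growth factors, found in choroid plexus, meninges and astrocytes (chromosome 1, 72824503 to 72852474, + strand). Igfbp2 had 15 and 404 counts, or 0.642 CPM (0.359 to 1.06) and 9.82 CPM (8.89 to 10.8), a log2 ratio of 3.94 (3.20 to 4.79). Kl encodes klotho, the co-receptor of FGF23 that is also shed into the fluid (chromosome 5, 150952607 to 150993817, + strand). Kl had 26 and 63 counts, or 1.11 CPM (0.726 to 1.63) and 1.53 CPM (1.18 to 1.96), with a mean of 1.32 ± 0.296 CPM (SD, n = 2). The levels of Kl in the libraries overlapped within counting error, at a log2 ratio of 0.46 (−0.22 to 1.18). Kl is among the long genes of the list, with 9328 exon bases and a longest transcript of 5828 bases. After subtracting the median ratio of genes of like GC content and length of the longest transcript, its log2 ratio was 1.44.

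The channel and transport genes had few counts in library 1. Kcne2 encodes a beta subunit of potassium channels of the apical epithelial membrane (chromosome 16, 92292389 to 92298129, + strand). Kcne2 had 10 and 93 counts, or 0.428 CPM (0.205 to 0.787) and 2.26 CPM (1.82 to 2.77), a log2 ratio of 2.40 (1.46 to 3.51). Clic6, of the chloride intracellular channel family, lies on the same chromosome (16, 92485736 to 92541243, + strand). Clic6 had 15 and 202 counts, or 0.642 CPM (0.359 to 1.06) and 4.91 CPM (4.26 to 5.64), a log2 ratio of 2.94 (2.18 to 3.80). Both were higher in library 2 with no overlap of the counting intervals.

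Folr1 encodes folate receptor alpha, which moves folate across the choroid plexus into the fluid (chromosome 7, 101858331 to 101870788, − strand). Folr1 had 5 and 229 counts, and 8.80 counts in library 2 would have matched the level of library 1. The levels were 0.214 CPM (0.0694 to 0.499) and 5.57 CPM (4.87 to 6.34), a log2 ratio of 4.70, and the few counts in library 1 leave it anywhere between 3.46 and 6.34. Aqp1 encodes the water channel of the apical membrane, also present in red blood cells (chromosome 6, 55336432 to 55348555, + strand). Aqp1 had 3 and 6 counts, or 0.128 CPM (0.0265 to 0.375) and 0.146 CPM (0.0535 to 0.317). It was the only one of the 10 under the summed count of 20, and with a log2 ratio of 0.18 (−2.04 to 2.81) no difference was detectable at this depth. The summed counts of 7 erythroid genes were 5 and 621.

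Prlr encodes the prolactin receptor, known from choroid plexus epithelium (chromosome 15, 10177238 to 10349180, + strand). Prlr had 11 and 59 counts, or 0.470 CPM (0.235 to 0.842) and 1.43 CPM (1.09 to 1.85). The log2 ratio of Prlr was 1.61 (0.67 to 2.69). Gm21973, a gene on the same strand with no counts in either library, shares 1.32% of its exon bases. Otx2 encodes the homeodomain factor needed to form and maintain this epithelium (chromosome 14, 48657677 to 48673819, − strand). Otx2 had 9 and 72 counts, or 0.385 CPM (0.176 to 0.731) and 1.75 CPM (1.37 to 2.20), a log2 ratio of 2.18 (1.18 to 3.37). Its antisense gene Otx2os1, which shares 3.65% of the exon bases of Otx2, had 0 and 5 counts. Gm49154, on the strand of Otx2, shares 3.98% of them and had no counts. Whether the counting used the strand is not given in the sources used here, so reads in the shared bases cannot be assigned.

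Promoters of 6 of the 10 genes were in the RefSeq table (GRCm38.p6, 300 bases around each of 13 start sites), and they were searched for the core bound by OTX2, TAATCC, and a forkhead core, GTAAACA, on both strands. TAATCC was in 1 of the 13 promoters, at an inner start site of Otx2 itself, and in 7.06% of all 32851 promoters. GTAAACA was in 1 of the 13, at an inner start site of Prlr, and in 3.65% of all promoters. The motifs do not overlap in letters. Both matches are shown because they are the only ones in the windows of these genes, 5′ to 3′ on the strand of the gene, with the match, which reads in reverse complement there, in capitals.
Otx2, chr14:48665303-48665332, − strand: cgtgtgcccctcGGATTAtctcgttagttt
Prlr, chr15:10223679-10223708, + strand: cgtgcatcaaagTGTTTACtcgacccagat
The match in Otx2 starts 211 bases before the start site and that in Prlr 215 bases before it. A match describes letters only, and no binding was measured.

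Levels of different genes were compared per kilobase of merged exon. In library 1, Ttr had 18.5 CPM per kb, Enpp2 3.50 and Igfbp2 0.347. In library 2 the same genes headed the order with 300.0, 37.1 and 5.32 CPM per kb. Below them the order in library 1 was Kcne2, Clic6, Kl, Folr1, Otx2, Aqp1 and Prlr, from 0.242 down to 0.0307 CPM per kb, and each of the 7 neighbouring pairs from Igfbp2 downward overlapped within counting error. In library 2 it was Folr1, Kcne2, Clic6, Otx2, Kl, Prlr and Aqp1, from 2.42 down to 0.0555 CPM per kb, where the intervals overlapped for Kcne2 with Clic6 and for Prlr with Aqp1. The largest change of place was that of Folr1, which stood below Kl in library 1 and above it in library 2.

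The makeup of the choroid plexus signal differed between the libraries as well as its size. Ttr made up 47.5% of the counts of the 10 genes in library 1 (95% Wilson interval 44.5 to 50.5) and 59.5% in library 2 (58.9 to 60.2). Enpp2 made up 43.8% (40.9 to 46.8) and 35.9% (35.3 to 36.5). The other 8 genes made up 8.70% in library 1 and 4.59% in library 2. Kl fell out of proportion most among the genes with a summed count of at least 20, with 5.07 counts per 100 Ttr counts in library 1 and 0.430 in library 2. Igfbp2 had nearly the same proportion to Ttr, at 2.92 and 2.76 counts per 100 Ttr counts. The value in library 1 rests on 15 Igfbp2 counts and is imprecise, with a share of the 10 genes between 0.843% and 2.28% (95% Wilson interval). Without Ttr, the sum was 24.3 and 242 CPM, a log2 ratio of 3.32, and without Ttr and Enpp2 it was 4.02 and 27.4 CPM, a log2 ratio of 2.77 (2.47 to 3.09). The 2 most abundant genes therefore set the ratio of the sum.

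**Figure D3:**
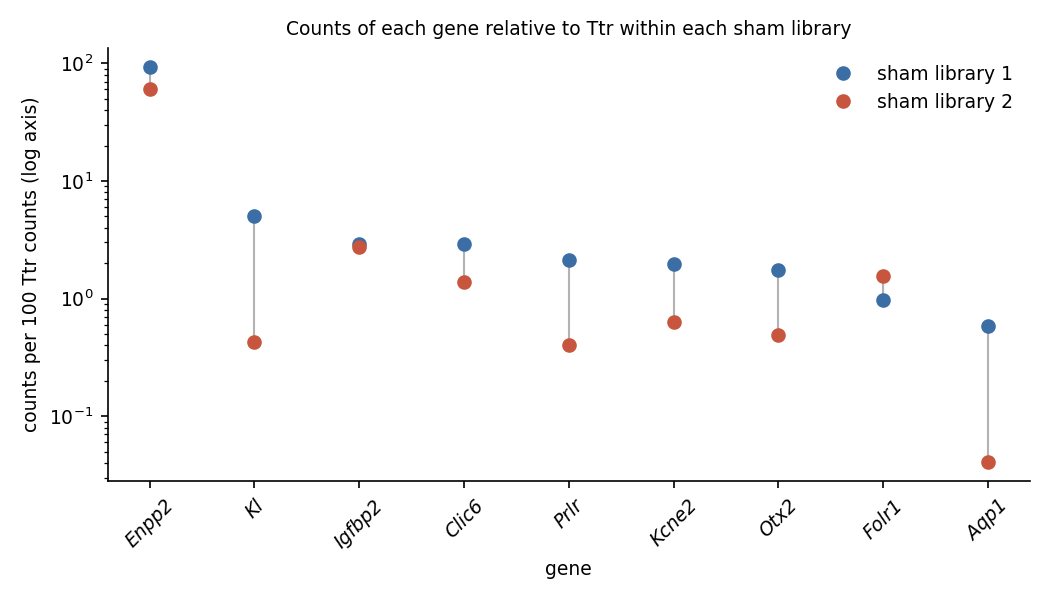
For the 9 genes other than Ttr, points show counts per 100 Ttr counts (log axis) in sham library 1 and sham library 2, joined by a line. Enpp2 goes from 92.2 to 60.2 and Kl from 5.07 to 0.430, whereas Igfbp2 lies at 2.92 and 2.76. Only Folr1 is higher in library 2, at 0.975 and 1.56. No intervals are drawn, and Igfbp2 and Folr1 rest on 15 and 5 counts in library 1.

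Across the 10 genes, the log2 ratio was lower for genes with longer exons (Spearman's rho −0.56 and Pearson's r −0.52 with log2 exon length) and had a rho of 0.10 with GC content. The 10 points share the same 2 libraries and the genes of few counts are imprecise. Over 14663 genes the same rho was −0.30 with length and −0.13 with GC content. After the adjustment for GC content and length, the 9 genes with a summed count of at least 20 had log2 ratios from 1.44 for Kl to 4.45 for Folr1, with a median of 3.39. The unadjusted values of these 9 genes ran from 0.46 to 4.70, so they lay closer to each other on the adjusted scale.

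A wider list of 43 genes known from choroid plexus epithelium was read in the same way. Of these, 25 (24 of the 37 with a summed count of at least 20) were over 2-fold higher in library 2, 3 were over 2-fold lower and 15 were neither, beside 9.51% higher and 25.7% lower over all genes tested. Without the limit on the summed count, as for the 25 and the numbers by role, 7.23% of all genes were over 2-fold higher. The median log2 ratio was 1.62 over the 43 genes, and 1.89 over the 37 with a summed count of at least 20, beside −0.21 over all genes tested. With a summed count of at least 100 it was 0.85. Ratios were computed with counts under 3 set to 3, so the ratios of the 8 genes without a count in library 1 are lower bounds or, where library 2 was also at the limit, carry no fold. A gene without a count in library 1 passes the summed count of 20 only through library 2, and is then over 2-fold higher by construction. Other genes with few counts in library 1 also passed mainly through library 2. Nothing is therefore read from the 24 of 37 or from the median of 1.89. By role, 7 of 14 transport genes, 7 of 11 secreted or enzyme genes, 2 of 4 receptor genes, 8 of 12 junction or epithelial genes and 1 of 2 transcription factor genes were over 2-fold higher. The genes over 2-fold lower were 2 transport genes and 1 gene of the receptor class.

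Kcnj13, a potassium channel of the apical membrane, had 4 and 152 counts, a log2 ratio of 4.43 (3.05 to 6.33). The next highest ratios were those of 1500015O10Rik, which encodes the secreted peptide augurin, and of Lbp, the binding protein of lipopolysaccharide. 1500015O10Rik had 10 and 244 counts and a log2 ratio of 3.79 (2.89 to 4.87), and Lbp had 65 and 1498 counts and a log2 ratio of 3.71 (3.35 to 4.09). These lie beside Ttr and Igfbp2 in ratio. The lowest log2 ratios were −3.15 for Ace, the angiotensin-converting enzyme (101 and 20 counts), −2.16 for Slc4a2, an anion exchanger (848 and 333 counts), and −1.30 for Trpv4, a calcium-permeable channel (438 and 313 counts). After the adjustment for GC content and length these were −1.46, −0.50 and −0.24.

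The wider list was split by mean level, since abundant genes set its sum. Per kilobase, the highest mean levels were those of Tcn2, a carrier of vitamin B12, with 425 CPM per kb, Slc31a1, a copper importer, with 22.2, and Cab39l, a kinase scaffold, with 6.38. Tcn2 had 858 and 991 CPM, a log2 ratio of 0.21, and Slc31a1 had 103 and 86.7 CPM, a log2 ratio of −0.25. The log2 ratio of Cab39l was 0.11. In library 1, Tcn2 at 858 CPM stood above the 46.2 CPM of the 10 genes summed. From which cells the counts of these abundant genes came was not tested. Lbp, 1500015O10Rik and Trpv4 followed in level, with 4.06, 3.52 and 3.23 CPM per kb. Over the 8 genes with a mean of at least 10 CPM the median log2 ratio was −0.43, with 1 over 2-fold higher and 2 over 2-fold lower. Over the other 35 genes it was 1.89, with 24 over 2-fold higher and 1 over 2-fold lower, and their summed level was 25.1 and 83.1 CPM. Beside these numbers stand 9.51% of all genes tested over 2-fold higher and 25.7% over 2-fold lower. Without the limit on the summed count, 7.23% were over 2-fold higher. The 35 genes include the 8 without a count in library 1, so nothing is read from their median or their number past 2-fold. The sum of all 43 genes was 1137 and 1291 CPM. The split was made after the values had been seen.

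**Figure D4:**
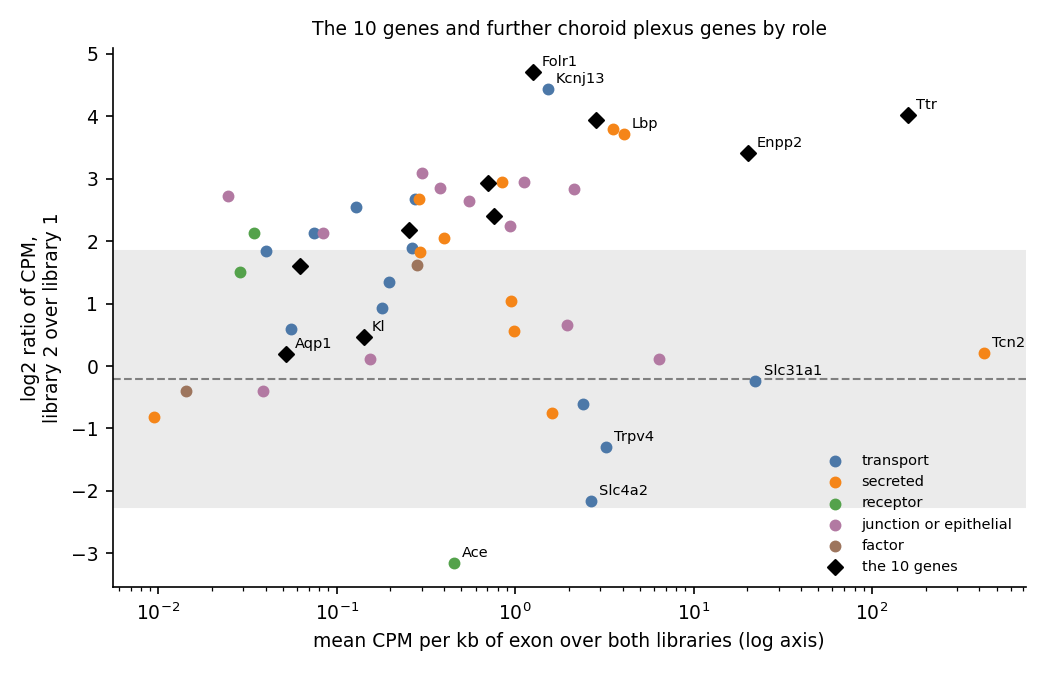
The 10 genes (diamonds) and the further choroid plexus genes with any count (circles, coloured by role) are placed by mean CPM per kb of exon over both libraries (log axis) and by the log2 ratio of library 2 over library 1. The grey band spans the 5th to 95th percentile of all genes tested and the dashed line their median of −0.21. Ttr and Enpp2 stand at the upper right, whereas Tcn2 and Slc31a1, of like or higher level than Enpp2, lie near the median. A circle with no count in library 1 is a lower bound.

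Gene lists of other cells were set beside the choroid plexus genes, with every gene counted in the numbers past 2-fold and counts under 3 set to 3. Beside each of these numbers stand 9.51% of all genes tested over 2-fold higher and 25.7% over 2-fold lower. Without the limit on the summed count, the share over 2-fold higher was 7.23%. Ependymal genes, which mark the ciliated cells that line the ventricles next to the choroid plexus, summed to 2.74 and 9.33 CPM, with 6 of 10 over 2-fold higher and 1, of few counts, over 2-fold lower. The log2 ratio of their sum was 1.77 (1.38 to 2.17), and their most abundant gene, Cfap126, held 43 of the 64 counts in library 1 and 98 of the 384 in library 2. Their median log2 ratio was 2.47, beside 2.67 for the 10 choroid plexus genes, and the highest was 3.62. Apart from Cfap126, the ependymal genes had at most 6 counts in library 1, such as 1 for Ccdc153 and 0 for Pifo. Several of their ratios therefore rest on the setting of low counts to 3, and nothing is read from how near the medians lie. The summed level was 3.41-fold higher in library 2 for the ependymal genes and 12.9-fold for the 10 choroid plexus genes. Fibroblast genes of meninges and stroma summed to 0.813 and 4.03 CPM, with 2 of 8 over 2-fold higher and Lum at 0 in both libraries, and Slc6a13, a transporter of meningeal cells, held 8 of their 19 counts in library 1 and 120 of 166 in library 2. Neuron genes summed to 3.93 and 6.37 CPM (3 of 8 higher, 3 lower), led by Snap25 with 1.41 and 3.23 CPM. Astrocyte genes summed to 234 and 193 CPM (3 of 9 higher, 1 lower), led by Slc1a3 with 219 and 169 CPM. Endothelial genes summed to 96.3 and 88.2 CPM (2 of 8 higher, 2 lower), led by the glucose transporter gene Slc2a1 with 77.6 and 72.2 CPM. The sums of the neuron, astrocyte, endothelial and oligodendrocyte lists lay closer together in the libraries than that of the 10 genes, although single genes with few counts moved in both directions.

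Blood cell lists moved with the choroid plexus genes. Immature neutrophil genes summed to 1837 and 33766 CPM, a log2 ratio of 4.20, and all 10 of 10 were over 2-fold higher, with log2 ratios from 1.97 to 4.42. Ngp, their most abundant gene, which encodes a granule protein, had 749 and 16031 CPM. Erythroid genes summed to 0.214 and 15.1 CPM, with 5 of the 7 matched genes over 2-fold higher, and Hbb-bs, a beta globin gene, had 0 and 255 counts. Border macrophages sit in the meninges, around vessels and in the choroid plexus, and their genes summed to 780.4 and 502 CPM, a log2 ratio of −0.64. Of these, 1 of 10 was over 2-fold higher and 3 were over 2-fold lower, beside 9.51% and 25.7% of all genes tested. Their median log2 ratio of −0.27 lay next to the −0.21 of all genes tested, and single genes ran from −2.17 to 2.49. F13a1, their most abundant gene, had 225 and 64.7 CPM. Of the 10 microglia genes, none was over 2-fold higher and 2 were over 2-fold lower, beside 9.51% and 25.7% of all genes tested. Csf1r, the highest of them, had 14910 and 5934 CPM. Its log2 ratio was −1.33, and 0.07 after the adjustment for GC content and length. Whether cells other than microglia had a part in the difference of the choroid plexus genes was not tested.

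**Figure D5:**
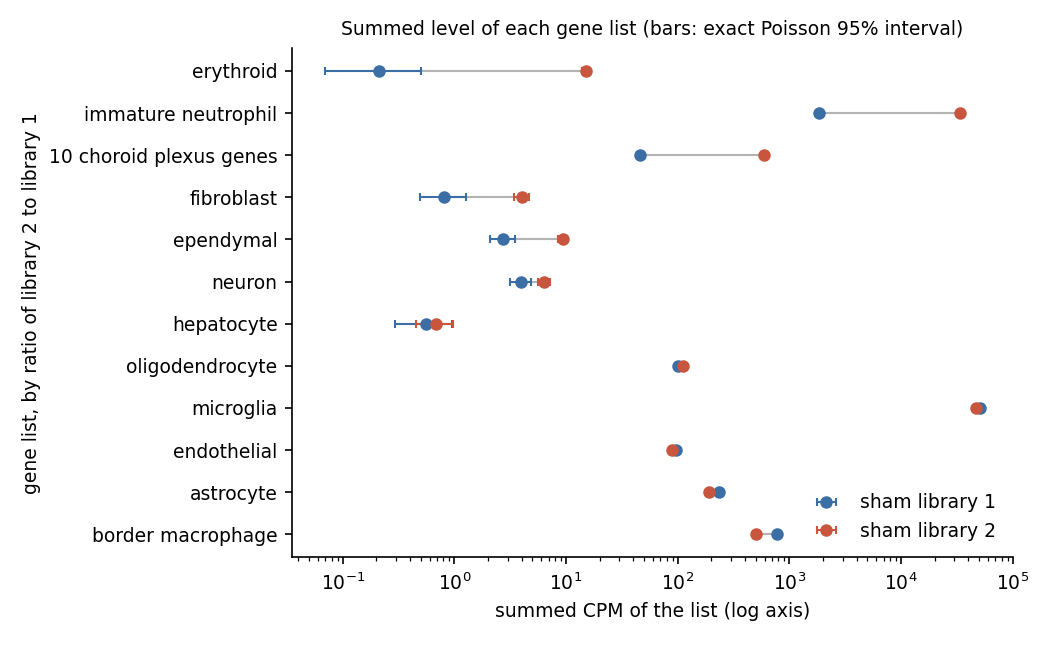
Each row shows the summed level (CPM, log axis) of a gene list in sham library 1 and sham library 2, with exact Poisson 95% intervals, ordered by the ratio between them. The 10 choroid plexus genes (46.2 and 597 CPM) stand next to the immature neutrophil genes (1837 and 33766 CPM) and the erythroid genes (0.214 and 15.1 CPM) at the top, whereas border macrophage genes (780.4 and 502 CPM) stand at the bottom.

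With 2 libraries, the likeness of another gene to the choroid plexus sum can only be a like ratio. Among genes with a summed count of at least 200, the 5 nearest to the log2 ratio of the sum were Lbp (3.71), Shcbp1 (3.63), Car2 (3.62), Ly6g (3.77) and Pimreg (3.61). Lbp is in the wider choroid plexus list, Car2 encodes a carbonic anhydrase, and Ly6g encodes the antigen that the sort used against neutrophils. Ly6g was counted 360 and 8662 times, Car2 28 and 606 times. A like ratio across 2 libraries is shared by genes known from unlike cells.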

How the data were processed

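Sorted microglia of 2 sham-operated mice were sequenced after cDNA synthesis with the SMART-Seq HT Kit and tagmentation. The authors mapped the reads to GRCm38 (HISAT2) and assigned them to genes with Ensembl identifiers (HTSeq). Tool versions, annotation release and strand setting are not given in the sources used here. The deposited values are raw counts. Starts in the files count from 0 and are given from 1.

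Symbols, exon lengths and GC content came from GENCODE M21 (GRCm38), which named 53706 of the 53801 identifiers. The limits of Ttr in the files differ slightly from that release, those of the other 9 genes do not. Of 8 erythroid genes, 7 were found by name. Log2 ratios used counts of at least 3, and counts past a fold over all genes used a summed count of at least 20. Ratio intervals were exact conditional binomial, level intervals exact Poisson and share intervals Wilson, all at 95%. The GC and length adjustment used the GC content and length of the longest transcript of each gene. It subtracted the median ratio of genes in the same of 10 bins each, or in the GC bin alone under 20 genes. Tools were edgeR 4.0.16 and DESeq2 1.42.0 in R 4.3.3, and Python 3.11.15 with numpy 2.4.6, scipy 1.17.1, pandas 2.3.3 and matplotlib 3.10.9. The ratio and the GC part of the adjustment were tested on simulated counts, and the interval on simulated Poisson counts of equal rates. No trend with length was simulated, so the length part of the adjustment was not tested. No test between the libraries was run, because they are replicates of 1 group and the genes were chosen on their difference.

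The 10 genes and the lists were chosen with earlier results of these data known. Named were the 10 genes and genes whose exons overlap them, the 6 of highest mean CPM per kb and the 3 of highest and 3 of lowest log2 ratio among genes of the wider list with a summed count of at least 20, the most abundant gene of each other list, and the 5 genes nearest in ratio to the sum among those with a summed count of at least 200. Lum was named after its values were seen. Alternatives were scaling by TMM or DESeq2 size factors, library totals that leave out mitochondrially encoded genes, other filters and folds, the adjustment, the sum without its most abundant genes, and leaving out each library.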

Additional observations from a re-analysis of the deposited data

How the results depend on the processing

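No paired analysis was possible because both samples belong to 1 group and no test was run. Scaling by TMM or DESeq2 size factors raised every log2 ratio by 0.23, and moved the median of all genes tested from −0.21 to 0.02. The log2 ratio of the 10 summed genes, 3.69, was 3.92 with either, 3.58 after the GC and length adjustment, 3.32 without Ttr and 2.77 without Ttr and Enpp2, the last chosen after seeing the data. The number of the 10 genes over 2-fold higher, 8, was 8 across scalings and without a filter, and 7 past 4-fold. After the adjustment, which gave a value for 9 genes only, it was 9 of 9, relative to genes of like GC content and length. The share of all genes over 2-fold higher was 6.39% to 12.7%. Of all calls past 2-fold, 27.0% were higher in library 2, against 37.6% with TMM or DESeq2 and 47.4% after the adjustment. The median log2 ratio of the further choroid plexus genes, 1.89, was 2.12 with TMM, 2.11 with DESeq2, 2.02 after the adjustment, 1.62 without a filter and 0.85 with a summed count of at least 100, which leaves fewer genes. The biological coefficient of variation, 0.479, was 0.550 without a filter and 0.472 from DESeq2 dispersions. The summed level, 322 CPM, was 46.2 to 597 CPM with 1 library left out, which with 2 libraries says nothing about stability. Of 39 alternative values of single-gene ratios, 33 stayed within the counting interval and 6 did not, and none changed sign. Leaving mitochondrially encoded genes out of the totals shifted log2 ratios by −0.0054. Depth limits Aqp1 and Folr1 most, with 3 and 5 counts in library 1.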
